A study of Mus musculus with 21 samples.

Results

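Fibroblasts taken from mouse lungs 63 days after silica were set against fibroblasts taken 7 days after silica, which compares a long-established response to the mineral with an early one. The 3 libraries labelled SiO2d63 and the 3 labelled SiO2d7 were chosen by their titles, 6 of the 21 libraries of the series, and every gene symbol in them was considered. All 21 libraries came from female C57BL/6 mice that carry a Col1a2-GFP transgene, in which the regulatory region of the collagen gene Col1a2 drives green fluorescent protein. The silica groups received 400 mg/kg of silica in 50 µL by oropharyngeal aspiration, and the bleomycin (BLM) groups used for one further comparison received 2 mg/kg by the same route. Untreated mice had no aspiration. SiO2 day 14 libraries and untreated libraries, 3 of each, serve here for levels only. From each digested lung sample, 10000 live cells were sorted that were GFP-positive and negative for CD45, CD31, EpCAM, CD146 and Ter119. The sort selects on the Col1a2 reporter, so cells with little reporter signal were not collected. The labels do not say whether the 3 libraries of a group came from separate mice, so p-values measure the spread between these samples, which may be technical.

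Inhaled silica is not cleared from the lung. Particles are taken up by macrophages, the particles damage these cells, and inflammation, nodules and scar tissue persist long after exposure. Fibroblasts make the collagens and other matrix of that scar, divide early after injury, become contractile in part, and also exchange chemokines, cytokines and antigen-presentation signals with immune cells. Bleomycin, a DNA-damaging drug, gives a lung injury with fibrosis that recedes with time in mice, and is used here only to ask whether the change from day 7 to day 63 differed between the injuries.

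RNA was read as tags from the 3′ ends of transcripts, counted per gene symbol. The 6 silica libraries held 3737999 to 4477283 counts and 15851 to 16216 symbols with at least 1 count. Of 23204 symbols, 11669 had counts high enough to be tested, and they held 99.7% of all counts. Levels are CPM, which scale each library's counts to a fixed total, adjusted by TMM, a correction for composition. Changes are log2 fold changes, day 63 minus day 7, ± their standard error, with 3 libraries in each group. A gene is said to rise or fall when edgeR's quasi-likelihood test gave a Benjamini-Hochberg adjusted p under 0.05. Ribosomal RNA took 0.357% to 0.429% of the counts at day 7 and 0.304% to 0.394% at day 63. Messenger RNA of ribosomal proteins took 8.99% to 9.88% at day 7 and 7.06% to 7.16% at day 63, which do not overlap. The part of these shares in the results was not tested.

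The labelled cell type held up against its markers. All 15 fibroblast markers were detected in both groups, at a summed 41364 to 45020.0 CPM at day 7 and 37791 to 40716 CPM at day 63. The genes of the antigens used to exclude other cells were at or near 0: Pecam1 (CD31) had no count in the 6 libraries, Epcam had 3 counts at day 7 and 0 at day 63, and Ptprc (CD45) had 1 and 5. Mcam (CD146) had 9 and 3 counts. Col1a2, whose promoter drives the reporter used for sorting, itself fell, from 6669, 5979.8 and 6436 CPM at day 7 to 3388, 3284 and 3303 CPM at day 63, so the gate and the result are not independent for this gene.

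Of the 11669 genes tested, 1462 (12.5%) were higher at day 63 and 1402 (12.0%) were lower. Counts of called list members below are to be read beside these shares. At least 2-fold changes among these numbered 492 higher (4.22% of tested genes) and 491 lower (4.21%). The median change over all tested genes was 0.0015. For the gene lists below with no member higher or no member lower, other than the interferon and chemokine lists, DESeq2 and limma-voom also called 0, and an unadjusted p under 0.05 was reached by 1 oxidative phosphorylation gene that was higher (Sdhc) and 1 immediate-early gene that was lower (Ier3), named after their values were seen. The 3 libraries of each group did not overlap for 1387 of the genes that were higher (11.9% of tested genes) and 1353 of those that were lower (11.6%). Sorted cells are a bulk sample, and fewer cells of a kind and less RNA per cell cannot be told apart.

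**Figure D1:**
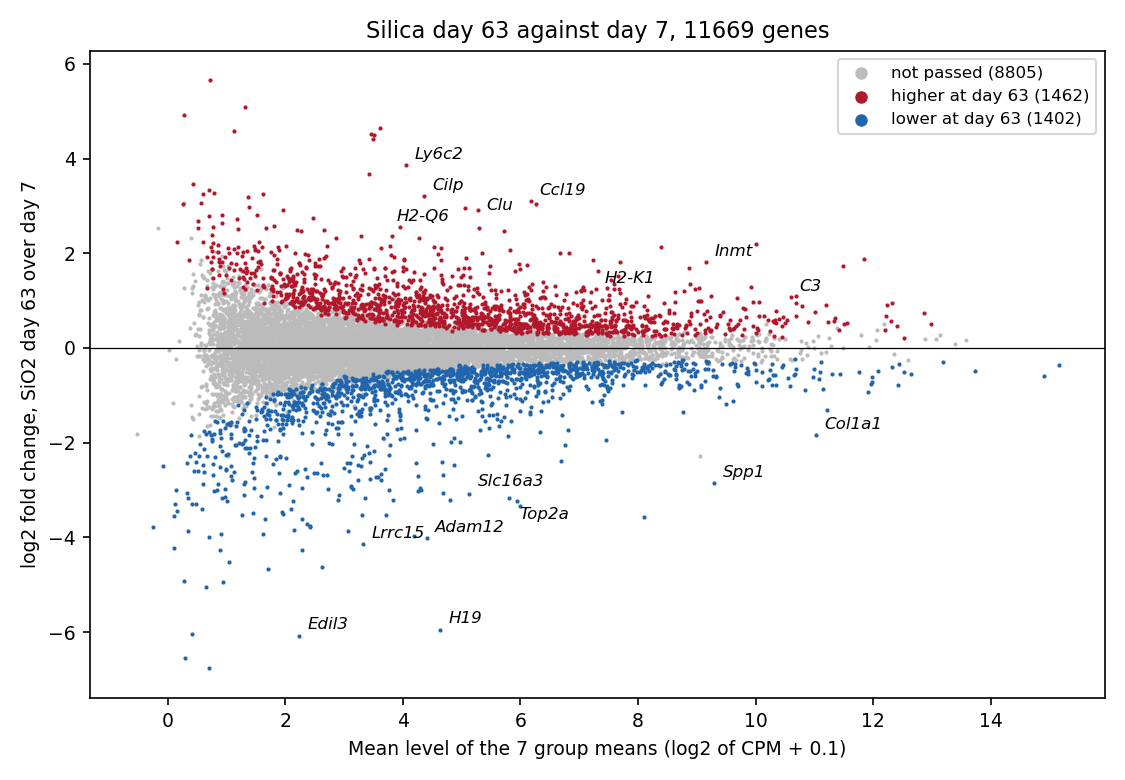
Change from day 7 to day 63 of silica (log2 fold change, vertical axis) against the mean of the 7 group means (log2 of CPM + 0.1, horizontal axis) for the 11669 tested genes. Coloured points passed the test, 1462 above 0 and 1402 below, and the labelled genes are among those described in the text.

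The largest falls included a noncoding RNA, matrix proteins and cell-division genes. H19, an imprinted long noncoding RNA of fetal growth (chromosome 7, 142575529 to 142578143 in mm10), stood at 106, 115 and 139 CPM at day 7 and at 2.63, 1.6 and 1.56 CPM at day 63, and untreated libraries had 0.343 ± 0.397 CPM. Its change was -5.95 ± 0.33 (adjusted p = 2.15e-14). Edil3, a secreted integrin-binding matrix protein, went from 28.3, 22.8 and 22.5 CPM to 0.263, 0.532 and 0.223 CPM, a change of -6.07 ± 0.40 (adjusted p = 1.25e-12). In both genes each day 7 library lay far above each day 63 library. The metalloprotease Adam12 fell by the same pattern, from 49.9, 50.5 and 58.7 to 2.63, 5.32 and 2 CPM (-4.01 ± 0.33). Lrrc15, a membrane protein used as a marker of activated fibroblasts, went from 26.1, 31.9 and 18 to 0.526, 1.6 and 2 CPM (-4.14 ± 0.35). Fibrillin-2 (Fbn2), a microfibril protein typical of growing tissue, went from 12.8, 14.6 and 11.6 to 0.788, 1.33 and 0.668 CPM (-3.78 ± 0.40). The secretory-granule protein Ptprn (-3.86 ± 0.32) also fell, and the 10 largest falls included the cell-division genes Kif4, Cenpe and Ccna2. At day 14 the means of H19, Edil3, Adam12, Lrrc15 and Fbn2 were 5.73 ± 3.11, 2.35 ± 0.547, 7.09 ± 1.37, 1.22 ± 1.01 and 0.376 ± 0.327 CPM (SD, n = 3), each below every day 7 library.

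The 10 largest rises were of secreted proteins, surface proteins, a noncoding RNA and symbols with no gene name. Ccl19 (chromosome 4, 42754525 to 42756577), a chemokine that draws T cells and dendritic cells through the receptor CCR7, went from 30.1, 31.9 and 20 CPM to 273, 208 and 221 CPM, a change of 3.10 ± 0.20 (adjusted p = 9.86e-13). Every day 63 library lay far above every day 7 library, and untreated libraries held 50.7 ± 9.21 CPM. Clusterin (Clu), an extracellular chaperone, went from 16.3, 18.9 and 13.2 to 115, 129.7 and 123 CPM (2.92 ± 0.19). Cilp, a matrix protein of cartilage that binds TGF-β, went from 7.78, 3.99 and 8.35 to 56.5, 57.5 and 73.2 CPM (3.21 ± 0.33), and untreated libraries held 7.21 ± 3.55 CPM. The noncoding RNA Snhg11 rose from 4.01, 3.19 and 1.27 to 35.2, 33.3 and 40.7 CPM (3.68 ± 0.29). Ly6c2, a GPI-anchored surface protein, went from 2.76, 2.39 and 7.85 to 28.4, 83.1 and 79.2 CPM (3.86 ± 0.40), with day 63 replicate 1 well below the other two. H2-Q6, a nonclassical MHC class I gene, is described with its family. The other 4 of the 10 largest rises were symbols of one numbering series, LOC105243767, LOC105243778, LOC105243805 and LOC105243845, with changes between 4.42 ± 0.56 and 4.64 ± 0.59. All 4 were low in each day 7 library and highest in day 63 replicate 1, and untreated means were 12.9 ± 10.4 to 17.9 ± 11.8 CPM. Tags of near-identical copies can be shared between such symbols, so they may not be separate genes, and the same holds for Ccl19 and its copies, Ly6c1 and Ly6c2, the Saa genes and the H2 genes.

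Cell-division genes fell, and the mitosis list had the lowest median of all the gene lists described here. Of 28 tested genes of mitosis and spindle, 27 fell and 0 rose, with a median change of -2.94 beside 0.0015 over all genes. Topoisomerase Top2a, which untangles chromosomes, stood at 139, 150.1 and 196 CPM at day 7 and 13.4, 19.4 and 20.7 CPM at day 63, a change of -3.17 ± 0.30 (adjusted p = 2.43e-09). Mki67, the antigen of dividing cells, went from 16.6, 18.9 and 18.5 to 1.58, 2.13 and 2.45 CPM (-3.10 ± 0.37), and untreated libraries had 1.53 ± 1.17 CPM. The spindle protein Nusap1 (-3.06 ± 0.22), the checkpoint kinase Bub1b (-3.77 ± 0.40), cyclin B2 (Ccnb2, -2.40 ± 0.29), cyclin A2 (Ccna2, -3.85 ± 0.47) and the kinesins Cenpe (-4.27 ± 0.51) and Kif4 (-4.62 ± 0.56) fell with them. The day 14 mean of Top2a was 18.9 ± 9.23 CPM, close to the day 63 libraries and above the untreated mean of 5.82 ± 3.87 CPM. With a filter at a mean of at least 10 CPM over all libraries, which leaves fewer of these genes to test, 3 fell.

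Of 24 tested DNA replication genes, 19 fell and 0 rose (median -1.51). Thymidine kinase Tk1 (-3.35 ± 0.25), the flap endonuclease Fen1 (-1.58 ± 0.17), the primase subunit Prim1 (-1.54 ± 0.17), the polymerase subunit Pold1 (-1.13 ± 0.13) and the transcription factor E2f1 (-1.54 ± 0.17) were among those that fell. The cell-cycle inhibitor Cdkn1a, a p53 target, did not pass the test (-0.16 ± 0.15), at 631, 734 and 911 CPM at day 7 and 674, 673 and 691 CPM at day 63. Of 24 p53 and senescence genes, 1 rose and 4 fell. The riser was the p53 target Sesn1 (0.80 ± 0.22), and lamin B1 (Lmnb1, -3.16 ± 0.29), which dividing cells express, had the largest fall.

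Genes of mitosis are known to share promoter elements, a CCAAT box and a cell-cycle homology region with the letters TTTGAA. RefSeq promoters of 3 of them (GRCm38.p6, the 250 bases up to the annotated start, on the gene's strand) are shown because these genes had among the smallest adjusted p of the list, with every match to CCAAT or TTTGAA on either strand in capitals.
Top2a, chr11:99024190-99024439, minus strand: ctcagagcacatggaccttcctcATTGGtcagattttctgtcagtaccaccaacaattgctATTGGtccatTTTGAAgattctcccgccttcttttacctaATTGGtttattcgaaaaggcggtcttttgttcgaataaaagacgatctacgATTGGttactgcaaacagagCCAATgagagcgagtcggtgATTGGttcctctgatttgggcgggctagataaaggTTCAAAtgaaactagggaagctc
Ccnb2, chr9:70421555-70421804, minus strand: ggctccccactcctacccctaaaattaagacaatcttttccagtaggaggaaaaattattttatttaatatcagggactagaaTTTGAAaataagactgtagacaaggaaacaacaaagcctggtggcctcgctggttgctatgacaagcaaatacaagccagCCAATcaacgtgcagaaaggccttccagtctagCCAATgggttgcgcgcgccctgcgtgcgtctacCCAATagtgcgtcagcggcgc
Nusap1, chr2:119618048-119618297, plus strand: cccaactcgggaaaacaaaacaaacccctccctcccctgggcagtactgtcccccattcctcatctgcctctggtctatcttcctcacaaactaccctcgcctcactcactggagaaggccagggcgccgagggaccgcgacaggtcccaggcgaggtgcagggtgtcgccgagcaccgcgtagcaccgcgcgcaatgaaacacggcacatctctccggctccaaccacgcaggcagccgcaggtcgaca
Top2a held 6 matches to CCAAT and 2 to TTTGAA, Ccnb2 held 3 and 1, and Nusap1 held none in this window. Of the 28 tested mitosis genes 24 matched a RefSeq promoter, and 20 of these (83.3%) held CCAAT and 7 (29.2%) held TTTGAA, counted on both strands in 250 bases. Over all 27025 promoters the shares were 34.5% and 16.3%, and over the 8398 of tested genes 35.8% and 10.3%. The share with CCAAT varied between gene lists, from 0% for acute phase and complement to 66.7% for DNA replication and 70.6% for antigen presentation. It was 68.2% for cholesterol and fatty acid synthesis. The antigen-presentation list had risers only, so a high share of CCAAT is not particular to lists that fell. A match is a run of letters and says nothing of what binds there.

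**Figure D2:**
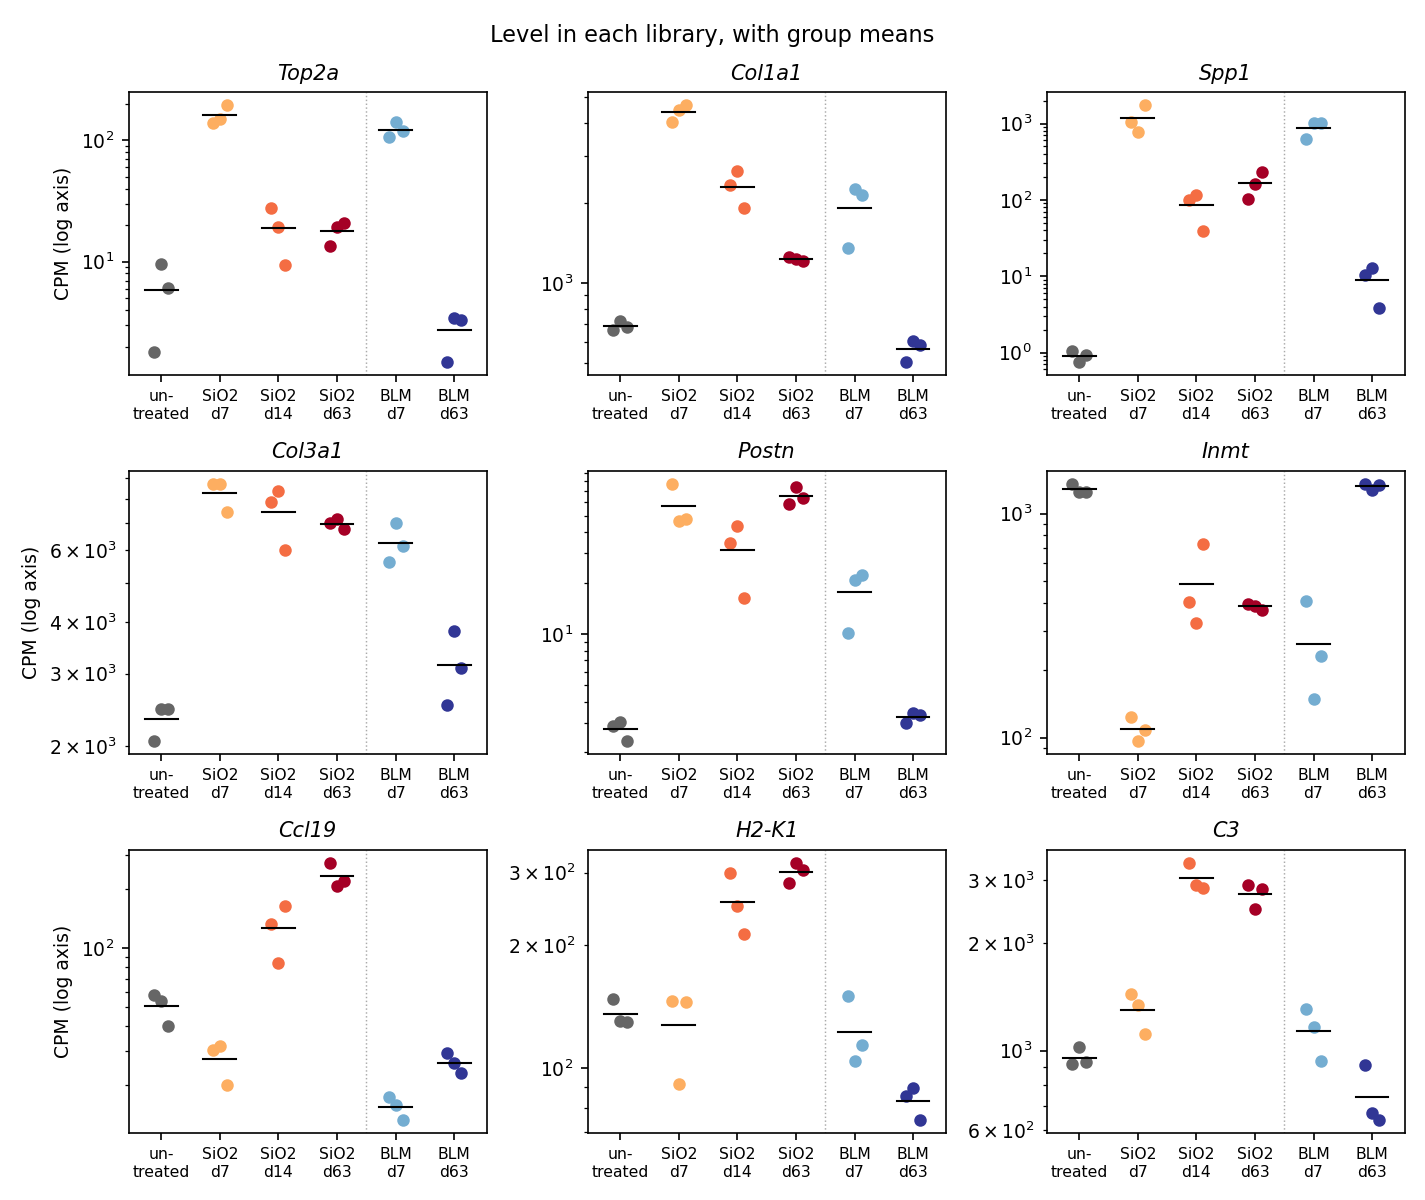
Level in each library (CPM, log axis) of 9 genes in untreated lungs and at day 7, 14 and 63 of silica, with day 7 and 63 of bleomycin at the right. Points are single libraries and short bars the means of 3. Top2a, Col1a1 and Spp1 are lower in every day 63 silica library than in any at day 7, Ccl19, H2-K1, C3 and Inmt are higher, and Postn and Col3a1 overlap or lie close.

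Fibrillar collagen chains fell or did not pass the test, and most other kinds of matrix gene changed in both directions. Of 9 tested chains of fibrillar collagen, 7 fell and none rose. Col1a1 went from 4012, 4454 and 4669 CPM to 1254, 1226 and 1205 CPM, a change of -1.83 ± 0.14 (adjusted p = 1.65e-11), and untreated libraries held 689 ± 27.4 CPM. Col1a2 fell less (-0.94 ± 0.10). The minor chains Col5a1 (-1.34 ± 0.13), Col5a3 (-1.10 ± 0.21) and Col11a1 (-1.99 ± 0.44) also fell. Col3a1 did not pass the test (-0.25 ± 0.12, adjusted p = 0.133), with 8702, 8686 and 7450.1 CPM at day 7 and 6980.4, 7138 and 6747 CPM at day 63, against 2329 ± 235 CPM in untreated lungs. The 3 day 63 libraries of Col3a1 lay just below the lowest at day 7, and all 6 lay far above the untreated mean.

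Enzymes that modify and cross-link collagen mostly fell: 15 of 25 fell and 3 rose (median -0.44). Lysyl oxidase (Lox), which cross-links collagen and elastin, went from 4349, 3254 and 4072 to 1369.5, 1593 and 1764 CPM (-1.30 ± 0.15), near its untreated mean of 1440.3 ± 231 CPM. The procollagen protease Bmp1 (-1.44 ± 0.17), the chaperone Fkbp10 (-0.84 ± 0.13) and the prolyl hydroxylase subunit P4ha3 (-0.90 ± 0.17) fell. Pcolce2, an enhancer of procollagen cleavage, rose (1.44 ± 0.16). Of 16 other interstitial collagens 3 rose and 4 fell: Col28a1 (2.12 ± 0.32), Col13a1 (0.83 ± 0.14) and Col14a1 (0.77 ± 0.15) rose, while Col7a1 (-1.95 ± 0.16) and Col12a1 (-1.76 ± 0.19) were among those that fell.

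Among matrix glycoproteins 9 of 32 rose and 14 fell. Osteopontin (Spp1), a secreted phosphoprotein that binds integrins, went from 1040.1, 776 and 1755 CPM to 103, 159 and 232 CPM (-2.85 ± 0.31, adjusted p = 3.73e-08). The groups did not overlap, and the lowest day 63 library was still far above the untreated mean of 0.909 ± 0.143 CPM. Fibronectin (Fn1) went from 1118, 879.6 and 1150.0 to 406, 522 and 530.4 CPM (-1.11 ± 0.16) and tenascin-C (Tnc) from 247, 268 and 269 to 106, 109 and 130.0 CPM (-1.18 ± 0.17). Cthrc1, a secreted protein of scar-forming fibroblasts, fell at a low level, from 6.52, 10.1 and 8.35 to 3.68, 3.46 and 3.12 CPM (-1.28 ± 0.31). Periostin (Postn), an adhesion protein of injured tissue, did not pass the test (0.20 ± 0.22). It read 77.3, 46.5 and 48.1 CPM at day 7 and 59.1, 74 and 64.1 CPM at day 63, overlapping groups that both lay far above the untreated 2.73 ± 0.351 CPM. Risers included Igfbp6 (1.87 ± 0.16), which binds insulin-like growth factor II, and the fibulin family member Efemp1 (1.33 ± 0.18).

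Proteoglycans had 7 of 23 higher and 5 lower. The leucine-rich proteoglycans Prelp (1.69 ± 0.10), Aspn (1.55 ± 0.24) and Bgn (0.39 ± 0.08) and the syndecan Sdc4 (0.56 ± 0.09) rose, and versican (Vcan, -1.29 ± 0.16), a large hyaluronan-binding proteoglycan, fell. In the basement membrane list 4 of 15 rose and 4 fell. The laminin chains went in opposite directions: Lama2 (0.86 ± 0.11) and Lamb2 (0.99 ± 0.19) rose, while Lama1 (-1.43 ± 0.33) fell. The nidogens Nid1 (-0.61 ± 0.11) and Nid2 (-2.69 ± 0.24) both fell. Of proteases and inhibitors 7 of 31 rose and 13 fell. Stromelysin-1 (Mmp3, 1.63 ± 0.20) rose, Adam19 (-1.74 ± 0.21) and Adamdec1 (-2.41 ± 0.26) fell, and the metalloprotease inhibitor Timp1 went from 141, 160.5 and 164 to 63.1, 76.7 and 86.8 CPM (-1.04 ± 0.13), still above the untreated 14.2 ± 2.3 CPM.

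**Figure D3:**
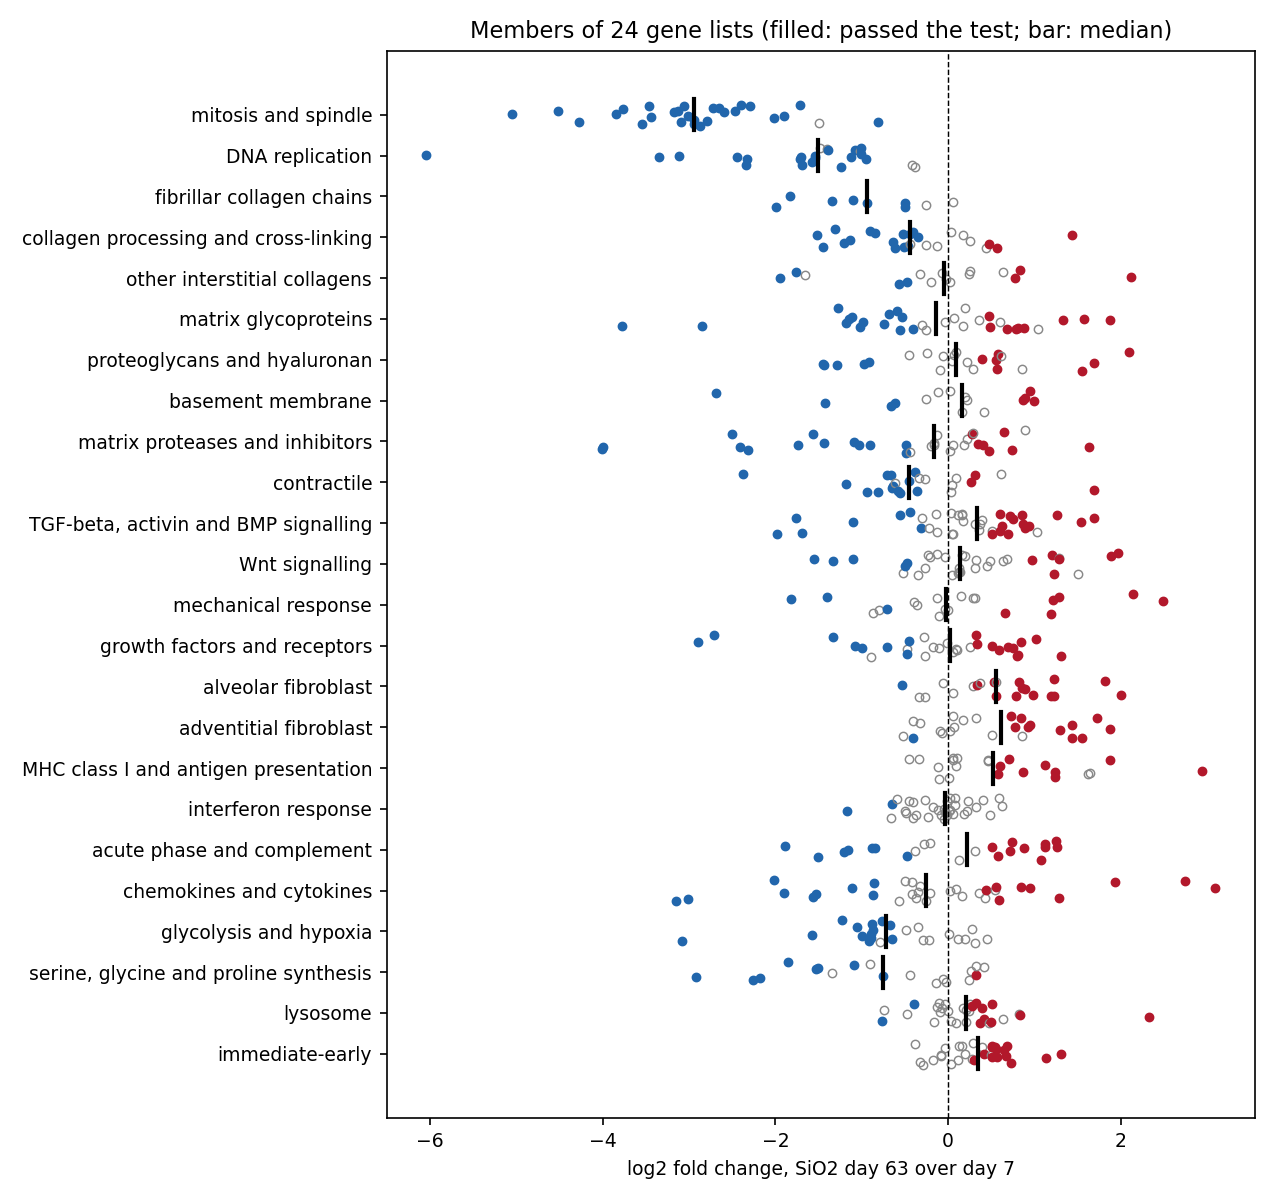
Change from day 7 to day 63 of silica (log2 fold change, horizontal axis) of each tested member of 24 gene lists, 1 row per list. Filled points passed the test and open points did not, black ticks are list medians, and the dashed line is 0. Nearly all points of the mitosis and DNA replication rows lie left of 0, and those of MHC class I and alveolar fibroblast genes lie mostly right of it.

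Contractile genes mostly fell, 13 of 23 against 3 that rose (median -0.45). Smooth muscle actin (Acta2), the defining actin of myofibroblasts, went from 99.6, 93.8 and 79 to 51.5, 55.1 and 48.1 CPM (-0.82 ± 0.19), against 8.28 ± 1.18 CPM in untreated lungs. Enteric actin Actg2 (-2.38 ± 0.24), the tropomyosins Tpm2 (-1.18 ± 0.15) and Tpm4 (-0.64 ± 0.09) and smoothelin (Smtn, -0.65 ± 0.10) fell, and the actin-bundling protein Synpo2 rose (1.69 ± 0.26). Tagln, another smooth muscle protein, read 72.2, 28.7 and 35.9 CPM and 40.7, 47.9 and 53.2 CPM, with day 7 replicate 1 far above the other libraries, and did not pass (0.05 ± 0.23). Its direction changed when each of 3 libraries was left out singly: -0.19 (adjusted p = 0.622) without day 7 replicate 2, -0.09 (adjusted p = 0.852) without day 7 replicate 3 and -0.04 (adjusted p = 0.943) without day 63 replicate 3, where adjusted p over the alternatives with a filter ran from 0.0653 to 1.

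Signalling genes changed in both directions. In the TGF-β, activin and BMP list 14 of 38 rose and 7 fell. The BMP antagonist gremlin (Grem1) went from 74.7, 61.4 and 51.6 to 11.3, 24.8 and 21.8 CPM (-1.69 ± 0.24) and had no count in the untreated libraries. The activin antagonist follistatin (Fst, -1.99 ± 0.21) also fell. The ligands Gdf10 (1.69 ± 0.21) and Bmp5 (0.93 ± 0.15) and the latent TGF-β binding protein Ltbp4 (1.26 ± 0.19) rose. Of 33 Wnt genes 6 rose and 5 fell, and only 2 fell without day 63 replicate 1 or without day 7 replicate 3. Over all tested genes 12.5% rose and 12.0% fell, so these counts do not set the Wnt list apart. The ligand Wnt2 (1.23 ± 0.30) and the secreted proteins Dkk3 (1.29 ± 0.13) and Wisp2 (0.98 ± 0.21) rose, while the secreted enhancer Rspo3 (-1.33 ± 0.20) and Wisp1 (-1.56 ± 0.31) fell.

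Of 20 genes of mechanical response 6 rose and 3 fell, or 5 without day 63 replicate 1. Connective tissue growth factor (Ctgf, 1.29 ± 0.14), its relatives Nov (2.49 ± 0.36) and Cyr61 (0.66 ± 0.11) and the nuclear ankyrin-repeat protein Ankrd1 (2.14 ± 0.32) rose together. Of the growth factor list 11 of 30 rose and 8 fell, with 7 risers without day 63 replicate 3. The epidermal growth factor family ligands Ereg (-2.71 ± 0.25) and Nrg1 (-1.34 ± 0.21) and the platelet-derived growth factor Pdgfc (-2.89 ± 0.52) fell, and Gas6, a ligand of the TAM receptors, rose (1.02 ± 0.10). Among mesenchymal transcription factors, with 7 of 33 higher and 7 lower, Snai1 (-1.50 ± 0.21) and Runx2 (-1.13 ± 0.17) fell and Tfap2a rose (1.60 ± 0.31). The 7 higher became 4 without day 63 replicate 1, day 7 replicate 2 or day 7 replicate 3.

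Among genes of resting fibroblast subtypes, more rose than fell. Of 21 alveolar fibroblast genes 13 rose and 1 fell (median 0.56). Inmt, an amine methyltransferase of resting lung fibroblasts, went from 123, 96.7 and 108 to 396, 386 and 373 CPM (1.82 ± 0.24, adjusted p = 1.10e-06), and untreated libraries held 1285 ± 64 CPM. Nephronectin (Npnt), a ligand of the integrin with the Itga8 chain, went from 511, 517 and 406 to 881, 800.3 and 800.4 CPM (0.79 ± 0.14), against 2829 ± 289 CPM. The lysophospholipase Enpp2 (2.00 ± 0.15), Itga8 itself (1.20 ± 0.11), and the cytoskeletal proteins Limch1 (0.98 ± 0.09) and Macf1 (0.89 ± 0.10) rose. The day 63 libraries of Inmt and Npnt lay above those of day 7 and below the untreated mean. The transcription factor Tcf21, needed for lung mesenchyme, went from 71, 53.7 and 53.7 to 80.9, 99 and 78.8 CPM (0.53 ± 0.15) against 167 ± 20.4 CPM. Without day 63 replicate 2 its change was 0.43 (adjusted p = 0.0605), with adjusted p over the alternatives with a filter from 0.00216 to 1.

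Of 24 adventitial fibroblast genes 11 rose and 1 fell (median 0.62). Dermatopontin (Dpt, 1.29 ± 0.12), gelsolin (Gsn, 1.73 ± 0.17), asporin (Aspn, 1.55 ± 0.24) and Igfbp6 were among the risers, and the faller was Igfbp4 (-0.41 ± 0.11). Pi16, a marker of adventitial fibroblasts, read 53.7, 35.1 and 31.9 CPM and 39.2, 30.1 and 55.9 CPM, did not pass (0.06 ± 0.19), and was below its untreated 126 ± 10.8 CPM in every one of these libraries. Of 13 lipid storage genes 4 rose and 3 fell: apolipoprotein Apoe (0.89 ± 0.16) and the lipolysis inhibitor G0s2 (1.10 ± 0.20) rose, and the fatty-acid binding protein Fabp5 (-2.17 ± 0.49) and the lipase Mgll (-1.44 ± 0.33) fell. The count of risers was 2 without day 63 replicate 3 or day 7 replicate 2. The sterol exporter Abca1 read 106, 100.4 and 92.1 CPM and 91.2, 82.5 and 96.8 CPM and did not pass (-0.14 ± 0.14).

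Of the immune lists, antigen presentation had risers only, and complement and chemokine genes changed both ways. MHC class I molecules carry peptides to the cell surface for T cells, with β2-microglobulin (B2m) as their common light chain. Of 22 tested genes of this list 9 rose and 0 fell (median 0.52). H2-K1 (chromosome 17, 33996017 to 34000347) stood at 146, 91.4 and 145 CPM at day 7 and 283, 317 and 304 CPM at day 63 (1.24 ± 0.15, adjusted p = 2.77e-07). H2-Q6 went from 15, 10.4 and 23 to 124, 140.0 and 111 CPM (2.95 ± 0.20). H2-D1 (1.24 ± 0.18), H2-Q7 (1.88 ± 0.23) and B2m (0.70 ± 0.11) rose as well. Every day 63 library of H2-K1 and H2-Q6 lay above every day 7 library, and the untreated means were 136 ± 10.1 and 12 ± 2.35 CPM.

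RefSeq promoters (GRCm38.p6) of H2-K1, H2-D1 and B2m are shown because these genes are the classical chains and the light chain of the group that rose, with capitals on matches, on either strand, to a core of interferon-regulatory-factor sites (AANNGAAA).
H2-K1, chr17:34000348-34000597, minus strand: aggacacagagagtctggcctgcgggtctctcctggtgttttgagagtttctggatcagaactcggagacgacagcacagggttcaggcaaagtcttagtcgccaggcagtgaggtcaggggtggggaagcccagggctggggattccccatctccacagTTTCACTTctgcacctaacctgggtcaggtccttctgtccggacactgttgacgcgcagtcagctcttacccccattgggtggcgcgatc
H2-D1, chr17:35262844-35263093, plus strand: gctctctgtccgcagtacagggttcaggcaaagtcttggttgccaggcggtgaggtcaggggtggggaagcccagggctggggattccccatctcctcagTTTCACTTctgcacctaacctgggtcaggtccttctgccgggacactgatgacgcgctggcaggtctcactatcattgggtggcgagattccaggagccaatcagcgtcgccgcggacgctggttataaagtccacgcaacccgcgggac
B2m, chr2:122147437-122147686, plus strand: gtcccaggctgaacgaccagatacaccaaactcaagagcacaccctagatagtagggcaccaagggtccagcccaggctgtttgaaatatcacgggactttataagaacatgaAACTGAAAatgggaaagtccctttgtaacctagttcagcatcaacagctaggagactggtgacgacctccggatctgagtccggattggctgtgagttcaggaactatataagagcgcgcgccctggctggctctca
Each of the 3 held 1 match. Of the 22 tested genes of the list, 17 matched a RefSeq promoter, of which 8 (47.1%) held the run, against 21.6% of all 27025 promoters and 16% of the 8398 of tested genes. In the interferon-response list, of which no member rose, 16 of 26 (61.5%) held it, so the run does not set the antigen-presentation list apart. The genes and letters were chosen with the values in view, and the shares are descriptions.

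Interferon-response genes showed no such rise. Of 35 tested, 0 rose by edgeR's test (2, Xaf1 and Irf8, at an unadjusted p under 0.05, and 0 with DESeq2 or limma-voom) and 2 fell (median -0.03), and 5 fell without day 7 replicate 1. Isg15, a ubiquitin-like protein induced by interferon, read 175, 277 and 295 CPM and 195, 181 and 122 CPM, overlapping groups, and did not pass (-0.59 ± 0.25). Without day 7 replicate 1, the lowest of its group, the change was -0.79 (adjusted p = 0.0225), and adjusted p ran from 0.0168 to 1 over the alternatives with a filter.

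Of 22 acute-phase and complement genes 10 rose and 7 fell, or 3 without day 63 replicate 1. Complement C3, the central component of the cascade, went from 1436, 1344 and 1115 to 2908, 2491 and 2833 CPM (1.08 ± 0.13). The early components C4b (1.25 ± 0.12) and C1s1 (1.27 ± 0.14) and their inhibitor Serping1 (0.74 ± 0.09) rose with it. Serum amyloid Saa3, an acute-phase protein, went from 1313, 1711 and 1286 to 731, 832 and 779 CPM (-0.88 ± 0.32, adjusted p = 0.0416) and remained far above the untreated 38.8 ± 15 CPM. The 3 day 63 libraries lay below those of day 7, yet the call was lost without any one of 5 of the 6 libraries, for example -0.74 (adjusted p = 0.144) without day 7 replicate 2, and adjusted p ran from 6.73e-06 to 0.467. Lipocalin-2 (Lcn2), which binds iron carriers of bacteria, read 155, 138 and 108 CPM and 125, 90 and 92.6 CPM and did not pass (-0.38 ± 0.20), against 9.04 ± 2.48 CPM in untreated lungs.

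Of 33 chemokines and cytokines 9 rose and 9 fell. Ccl19 and the membrane-bound chemokine Cx3cl1 (2.74 ± 0.37), the B-cell factor Tnfsf13b (1.28 ± 0.12), colony-stimulating factor Csf1 (0.84 ± 0.12) and the alarmin Il33 (0.95 ± 0.20) rose. Cxcl13, a chemokine for B cells, fell (-3.01 ± 0.31), as did the interferon-γ-inducible chemokine Cxcl9 (-1.90 ± 0.27). The neutrophil chemokine Cxcl5 went from 72.5, 70.7 and 58.2 to 39.4, 33.5 and 38.3 CPM (-0.85 ± 0.17), still above the untreated 3.59 ± 1.1 CPM. Cxcl12, which acts through CXCR4, read 128, 145 and 170.1 CPM and 173, 148 and 129 CPM, overlapping groups, with a change of 0.02 ± 0.14 whose direction turned without day 7 replicate 1 (-0.07) or day 63 replicate 1 (-0.09).

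Markers of other cell types changed as well, some upward and some downward, and their part in the results was not tested. Of 23 myeloid markers in the files 18 had a count at day 7 and 21 at day 63, and the list summed to 38.1 to 40.6 CPM at day 7 and 69.9 to 78.8 CPM at day 63. Of the 6 tested, 4 rose. The adaptor Tyrobp, the most abundant of the list, had 113 counts over the 3 day 7 libraries and 218 over those of day 63 (0.90 ± 0.26), cathepsin S (Ctss) 32 and 82 (1.30 ± 0.41), the endotoxin co-receptor Cd14 48 and 179 (1.85 ± 0.27), and the lysosomal protein Laptm5 42 and 140 (1.68 ± 0.42). Lyz1 (-0.53 ± 0.35) and Csf3r (0.49 ± 0.28) did not pass. The call of Tyrobp was lost without day 7 replicate 3 (0.77, adjusted p = 0.057, with adjusted p from 0.00312 to 0.325 over the alternatives with a filter). That of Ctss was lost without day 7 replicate 1 (1.24, adjusted p = 0.0537), day 63 replicate 2 (1.12, adjusted p = 0.0837) or day 63 replicate 3 (1.24, adjusted p = 0.0555), with adjusted p from 0.00732 to 0.16. Each of the 17 too low to test had at most 17 counts at day 7 and 21 at day 63, among them Cd68 with 1 and 4, Itgam with 1 and 4 and lysozyme Lyz2 with 12 and 14. Lymphocyte markers summed to 1.76 to 3.99 CPM and 9.72 to 13.4 CPM, with Cd3e and Cd79a at 0 in all 6 libraries. Igj, the joining chain of secreted antibodies, had 3 counts at day 7 and 84 at day 63, a ratio of 27.2 (exact 95% counting interval 8.99 to 134). Its mean went from 0.257 to 6.88 CPM, while that of the lymphocyte sum went from 2.5 to 11.1 CPM. Most of the difference in the sum is thus Igj, and the other tested lymphocyte marker, Cd3d, did not pass. Intervals cover counting error only, since the tags carry no molecular identifiers.

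Epithelial markers went the other way, from a summed 48.1 to 69.2 CPM at day 7 to 14.1 to 22.6 CPM at day 63, and surfactant genes Sftpc (-2.63 ± 0.36) and Sftpb (-3.50 ± 0.40), made by alveolar type II cells, fell. All 19 epithelial markers in the files had a count at day 7 and 15 at day 63. Endothelial markers summed to 22.5 to 41.1 and 48.5 to 58.1 CPM, nerve and Schwann markers to 36.2 to 58.7 and 76.4 to 85.7 CPM, and mesothelial markers to 202 to 304 and 332 to 361 CPM. In each of these 3 sums the groups did not overlap and day 63 was higher. Pericyte and smooth muscle markers summed to 702 to 891 and 609 to 625 CPM, and erythroid markers to 1 to 5.58 and 0 to 6.23 CPM. Of the 14 tested pericyte and smooth muscle markers 3 rose and 4 fell, so the list did not move as one. Its summed mean went from 777 to 619 CPM, while that of Actg2 alone went from 279 to 53.8 CPM. Abcc9 went the other way, from a mean of 56.6 to 106 CPM.

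**Figure D4:**
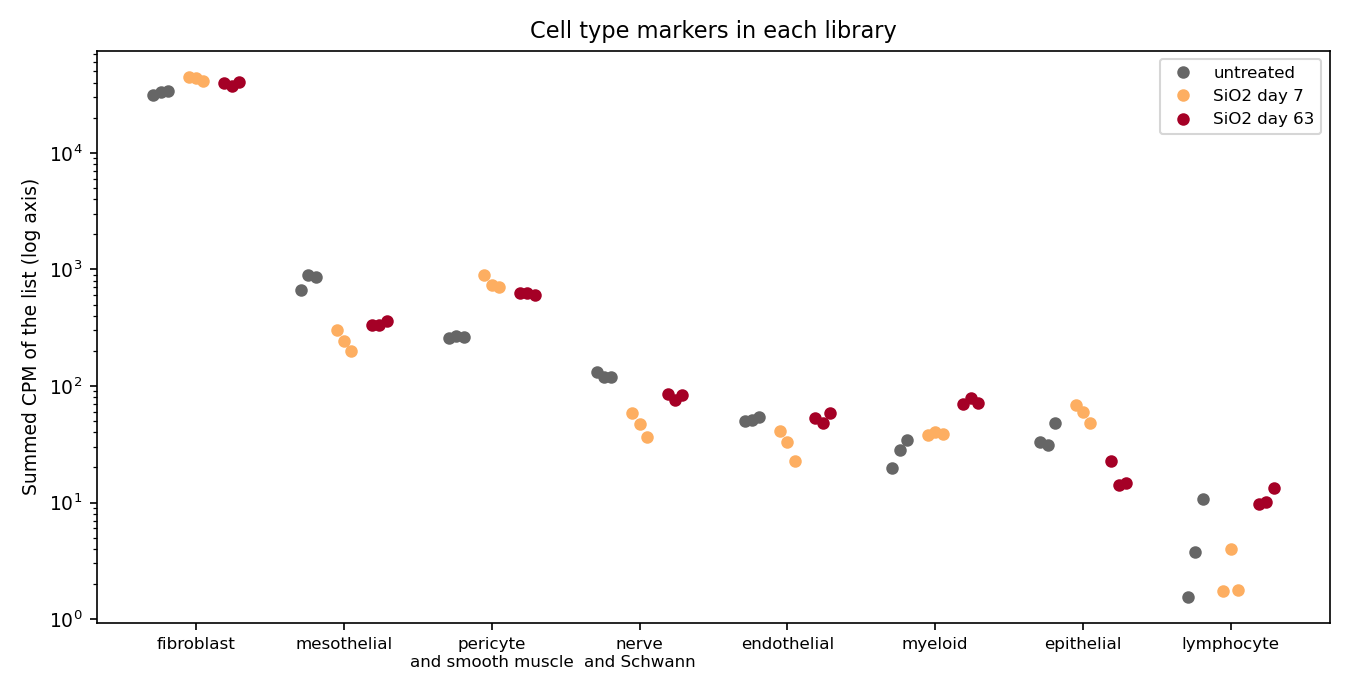
Summed level (CPM, log axis) of the markers of each cell type in each library of untreated lungs, SiO2 day 7 and SiO2 day 63. Points are single libraries. Fibroblast markers lie far above every other list in all libraries, and the myeloid and lymphocyte sums are higher and the epithelial sums lower at day 63 than at day 7, with no overlap. Most of the difference in the lymphocyte sum is the gene Igj.

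In the glycolysis list genes fell or did not pass the test. Of 24 genes of glycolysis and hypoxia 13 fell and 0 rose (median -0.72). The lactate exporter Slc16a3 (chromosome 11, 120948480 to 120960868) went from 140.5, 162 and 165 CPM to 15, 22.6 and 17.4 CPM (-3.09 ± 0.16, adjusted p = 1.35e-14), the groups being far apart, and untreated libraries held 6.55 ± 0.947 CPM. Pyruvate kinase Pkm (-1.05 ± 0.13), Gapdh (-1.22 ± 0.18), the glucose transporter Slc2a1 (-0.68 ± 0.10) and triose phosphate isomerase (Tpi1, -0.91 ± 0.15) fell. Gapdh has many processed copies in the genome, to which its tags may also have been assigned.

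Of 34 oxidative phosphorylation genes 9 fell and 0 rose, with Cox5a (-0.93 ± 0.16) the first by adjusted p, and 5 fell without day 7 replicate 2 or without day 7 replicate 3. In the list of serine, glycine and proline synthesis, which supplies collagen's most frequent residues, 8 of 19 fell and 1 rose. Asparagine synthetase (Asns, -2.26 ± 0.32), the serine enzyme Psat1 (-2.92 ± 0.43), the folate enzyme Mthfd1l (-2.18 ± 0.38), the amino-acid transporter Slc7a5 (-1.50 ± 0.25) and the proline enzyme Aldh18a1 (-0.75 ± 0.17) fell, and 5 members fell without day 63 replicate 3 or without day 7 replicate 3. Ribosome biogenesis had 4 of 30 lower and none higher, or 1 lower without day 63 replicate 1 or without day 7 replicate 3. Over all tested genes 12.0% fell, so the count of fallers does not set this list apart. In the ER list 5 of 37 rose and 8 fell, with the translocon subunit Sec61b (-0.89 ± 0.11) down and the chaperone Dnajc3 (0.60 ± 0.10) up, and 3 rose without day 63 replicate 2 or day 7 replicate 3.

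Oxidative-stress genes had 9 of 26 higher and 4 lower. The glutathione transferases Gsta4 (1.34 ± 0.20) and Gstm1 (1.77 ± 0.28), the secreted peroxidase Gpx3 (0.85 ± 0.13), the extracellular superoxide dismutase Sod3 (0.73 ± 0.13) and aldehyde oxidase Aox1 (1.28 ± 0.19) rose, and the 4 lower were 2 when day 7 replicate 3, day 63 replicate 1 or day 63 replicate 3 was left out. Lysosomal genes had 9 of 31 higher and 2 lower, led by the membrane glycoprotein Gpnmb (2.32 ± 0.19), acid glucosidase Gaa (0.84 ± 0.13), Lamp1 (0.51 ± 0.09) and the acid lipase Lipa (0.49 ± 0.11). Immediate-early genes, which also respond to tissue digestion, had 14 of 30 higher and 0 lower (median 0.35), among them Atf3 (1.31 ± 0.19), Klf2 (1.13 ± 0.21), Klf4 (0.67 ± 0.14) and Dusp1 (0.72 ± 0.10). Whether digestion differed between the groups was not tested.

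Few genes of sterol synthesis passed the test. Of 30 genes of cholesterol and fatty acid synthesis 3 rose and 2 fell, smaller shares than the 12.5% and 12.0% over all tested genes. Of 14 LXR targets 4 rose and 3 fell (2 rose without day 7 replicate 2). The desaturase Fads1 (0.56 ± 0.12) was among the risers of the synthesis list, and the small GTPase Arl4c (-1.73 ± 0.35) among the fallers of the LXR list. Clock genes had 5 of 15 higher and 2 lower, and the hour of sampling is not given in the sources used here. The transcription factors Hlf (1.52 ± 0.21) and Rora (0.67 ± 0.10) rose. The repressor Nr1d1 read 7.27, 19.1 and 28.1 CPM and 8.41, 7.19 and 5.79 CPM, with day 7 replicate 1 among the day 63 values (-1.35 ± 0.40), and the call was lost without day 7 replicate 3 (-0.88, adjusted p = 0.157) or day 63 replicate 3 (-1.21, adjusted p = 0.0591), with adjusted p over the alternatives with a filter from 0.000677 to 0.157.

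Whether these changes were shared by a fibrosis that recedes was asked by the interaction of model and time, which subtracts bleomycin's change over the same days from that of silica. The groups on either side of this subtraction share no library. In bleomycin 1528 genes (13.1%) were higher and 1692 (14.5%) lower at day 63 than at day 7. The difference between the models passed for 454 genes, 366 (3.14%) with the higher value in silica and 88 (0.754%) with the lower. A higher or lower value in silica here means the log2 fold change from day 7 to day 63, not the level. Across the 11669 tested genes the silica and bleomycin changes had a Pearson r of 0.618, as a description over genes, which are not independent.

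Chemokine, antigen-presentation, complement and matrix genes were among those with a higher value in silica. Of 33 chemokines and cytokines 19 had a higher value in silica and 0 a lower one by edgeR (1, Cxcl15, at an unadjusted p under 0.05 and with limma-voom, and 0 with DESeq2). Of MHC class I and antigen presentation 9 of 22 had a higher value and 0 a lower one, of acute-phase and complement genes 8 and 0 of 22, and of matrix glycoproteins 10 of 32 with 1 lower. Lcn2 had a mean of 134 ± 23.9 CPM at day 7 of silica and 102 ± 19.4 CPM at day 63, whereas in bleomycin it went from 46.6 ± 19.4 to 2.5 ± 1.98 CPM, a difference of 3.91 ± 0.42 (adjusted p = 3.17e-07). Saa3 had 189.9 ± 153 and 13 ± 6.77 CPM in bleomycin and a difference of 3.02 ± 0.53. Periostin went from 17.8 ± 6.7 to 3.26 ± 0.239 CPM in bleomycin, and its difference was 2.64 ± 0.44. For Timp1 (2.17 ± 0.21), Spp1 (3.80 ± 0.49) and Col3a1 (0.74 ± 0.17) the bleomycin changes were -3.21 ± 0.16, -6.65 ± 0.41 and -0.99 ± 0.12, further below 0 than those in silica. H2-Q6 (3.69 ± 0.33), H2-K1 (1.80 ± 0.22), C3 (1.70 ± 0.18), Ccl19 (2.35 ± 0.32) and Clu (3.55 ± 0.28) had positive differences, with bleomycin changes of -0.74 ± 0.27, -0.56 ± 0.16, -0.62 ± 0.13, 0.74 ± 0.24 and -0.63 ± 0.21.

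For Col1a1 the silica change of -1.83 ± 0.14 stood beside -1.76 ± 0.14 in bleomycin, and the difference was -0.07 ± 0.19 (adjusted p = 0.915). For Lox and Fn1 the differences were 0.21 ± 0.21 (adjusted p = 0.726) and 0.33 ± 0.22 (adjusted p = 0.518), and for Inmt -0.52 ± 0.33 (adjusted p = 0.496). None of these 4 passed, though Inmt did without BLM day 7 replicate 1 (-0.99, adjusted p = 0.0453, and adjusted p from 0.0453 to 1 over the alternatives with a filter). A missed threshold does not show that the models changed alike. The interferon list had 13 of 35 with a higher value in silica and 1 lower. Without bleomycin day 7 replicate 1, whose interferon genes stand apart from the other libraries of its group, 6 did. Isg15 had a difference of 1.5 ± 0.36 (0.96, adjusted p = 0.0616 without that library, and adjusted p from 0.000589 to 0.116 over the alternatives with a filter), and read 361, 184 and 118 CPM in the bleomycin day 7 libraries and 54.8, 46.5 and 54 CPM at day 63. Myeloid markers had 3 of 6 with a higher value in silica, and their sum in bleomycin went from 48.7 to 62.7 to 22.9 to 29.8 CPM while it rose in silica, and its part in these differences was not tested.

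The negative side held Slc16a3 (-3.07 ± 0.26, adjusted p = 2.58e-09), which was 13.3 ± 2.15 CPM at day 7 of bleomycin and 13.2 ± 2.16 CPM at day 63. Igfbp3, which binds insulin-like growth factors, had a difference of -2.86 ± 0.29: it rose from 15.4 ± 6.96 to 127 ± 29.9 CPM in bleomycin (3.03 ± 0.23) and read 158, 126 and 91.6 and 133, 149.9 and 140.4 CPM in silica. The mitochondrial protein Mgarp (-2.10 ± 0.37) and the clock repressor Nr1d2 (-2.20 ± 0.39) followed. Of glycolysis and hypoxia genes 6 of 24 had a lower value in silica and 1 a higher one, or 2 lower without SiO2 day 7 replicate 3 and 3 without BLM day 63 replicate 3. The most negative value named by the rule, Rabac1 (-7.14 ± 1.98), read 893 CPM in SiO2 day 7 replicate 1 against 31.6 and 33.9 CPM in replicates 2 and 3, and 89.6, 86.1 and 3966 CPM in the BLM day 63 libraries. Its difference did not pass without SiO2 day 7 replicate 1 (-3.84, adjusted p = 0.348), without BLM day 63 replicate 3 (-3.16, adjusted p = 0.454) or without any of 6 others of the 12 libraries, with adjusted p over the alternatives with a filter from 0.00711 to 0.512.

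**Figure D5:**
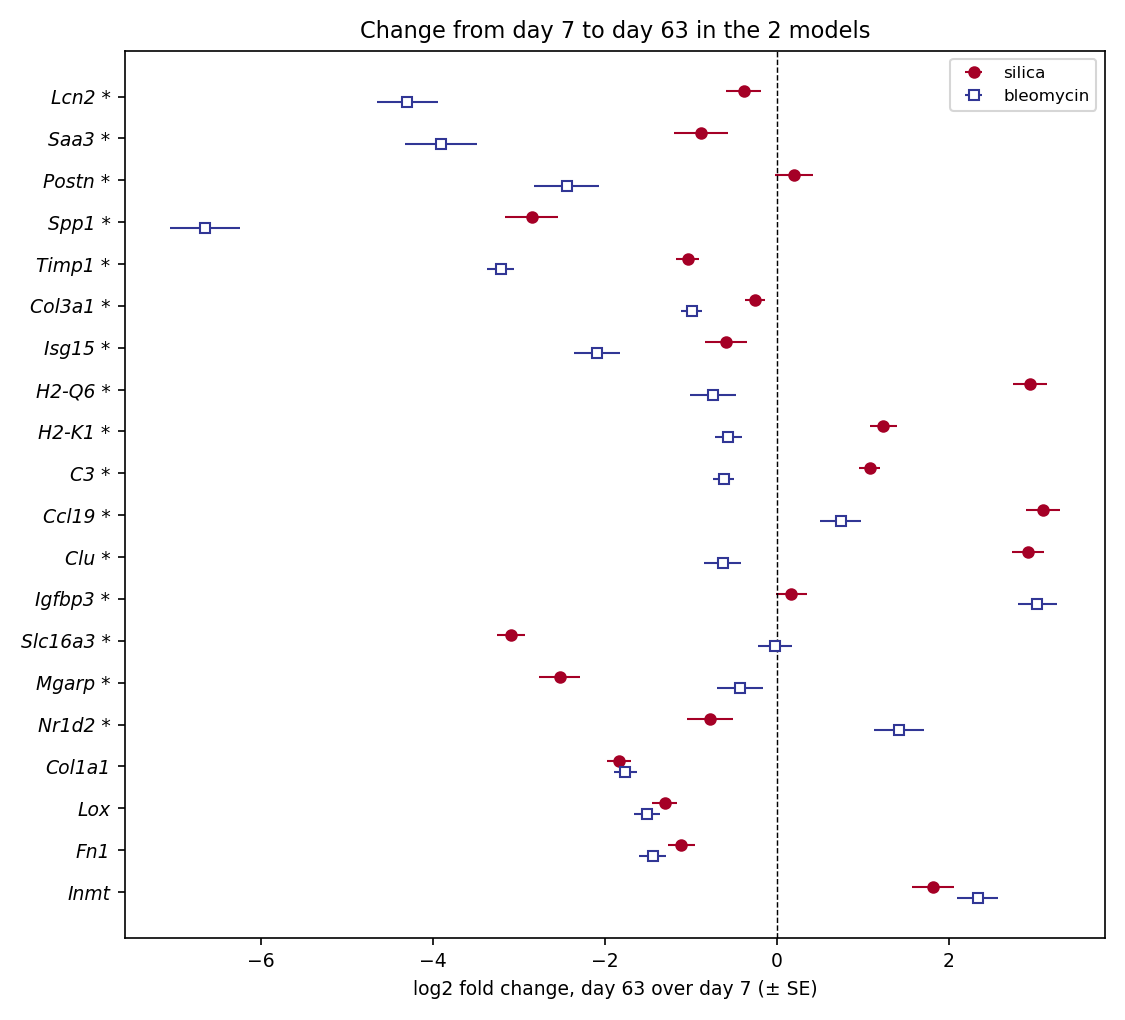
Change from day 7 to day 63 (log2 fold change ± SE, horizontal axis) of 20 genes described in the text, in silica (filled circles) and in bleomycin (open squares). A star marks genes whose difference between models passed the test. Lcn2, Saa3, Postn and Spp1 lie far further left in bleomycin than in silica, and Col1a1, Lox, Fn1 and Inmt have overlapping or near values.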

How the data were processed

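Tags from the 3′ ends of transcripts (3′SAGE-seq) were sequenced on an Ion Proton instrument, and the authors deposited raw read counts per gene symbol, with a separate file for each library. Alignment with Bowtie2 2.2.5 to mm10 is named in the submitters' processing notes. The counting program, annotation and strand setting are not given in the sources used here, so near-identical copies and overlapping genes are uncertain. Of 23204 symbols, 17830 (76.8%) matched GENCODE vM21, from which positions came.

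Counts of all 21 libraries (7 groups of 3 by title) were filtered with filterByExpr by group and scaled by TMM. A quasi-likelihood model was fitted with edgeR 4.0.16 (14 residual degrees of freedom, biological coefficient of variation 12.0%), and day 63 was contrasted with day 7 in silica and, as an interaction, with the same change in bleomycin. P-values were adjusted over 11669 genes by Benjamini-Hochberg, with calls at 0.05, and standard errors come from this model. The steps were tested on simulated data. Alternatives were other scalings, filters, tests and left-out libraries.

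Genes named were the 10 largest rises and falls among called genes whose groups do not overlap and whose higher group averages 10 CPM or more, the 8 largest interaction values each way, up to 5 genes of each list by adjusted p, and a set named always, of which those described were picked after their values were seen, mostly leaving out genes whose call rests on 1 library. Some genes that the rule names are not reported here. Where a gene had 1 to 3 counts in a group, its ratio has an exact counting interval. The members and lists were chosen with earlier results of these data known. Same-numbered libraries of the 2 groups had deviations that correlated at 0.00198, 0.000668 and 0.00688. Differently numbered ones correlated at -0.0104 to 0.00896. These values gave no sign of pairing by number, but values over all tested genes cannot exclude a shared batch or date. No label gives a batch or date.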

Additional observations from a re-analysis of the deposited data

Results flagged for a closer look

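The results below differ between the injuries: the change from day 7 to day 63 was not the same in silica and bleomycin by a test of the difference itself. This held for 366 genes with a higher log2 fold change in silica and 88 with a lower one, by edgeR's quasi-likelihood test at an adjusted p under 0.05. Of the genes described, Lcn2, an iron-carrier binding protein, differed by 3.91 ± 0.42 on the log2 scale, Spp1 by 3.80 ± 0.49, H2-Q6 by 3.69 ± 0.33, Clu by 3.55 ± 0.28 and Saa3 by 3.02 ± 0.53. Postn differed by 2.64 ± 0.44, Ccl19 by 2.35 ± 0.32, Timp1 by 2.17 ± 0.21, H2-K1 by 1.80 ± 0.22, C3 by 1.70 ± 0.18, Isg15 by 1.5 ± 0.36 and Col3a1 by 0.74 ± 0.17. Lower log2 fold changes in silica than in bleomycin, which are not lower levels, were found for Rabac1 (-7.14 ± 1.98), Slc16a3 (-3.07 ± 0.26), Igfbp3 (-2.86 ± 0.29), Nr1d2 (-2.20 ± 0.39) and Mgarp (-2.10 ± 0.37). Isg15 did not pass without BLM day 7 replicate 1 (0.96, adjusted p = 0.0616). Rabac1 did not pass without SiO2 day 7 replicate 1, without BLM day 63 replicate 3 or without any of several other libraries. Its call held in only 9 of the 20 alternatives with a filter. For Slc16a3 the silica libraries at day 7 held 156 ± 13.4 CPM and the bleomycin libraries 13.3 ± 2.15 CPM (mean ± SD, n = 3), against 18.3 ± 3.91 and 13.2 ± 2.16 CPM at day 63. For Igfbp3 the early levels were 125 ± 33.3 and 15.4 ± 6.96 CPM. For Lcn2 the late levels were 102 ± 19.4 CPM in silica and 2.5 ± 1.98 CPM in bleomycin.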

How the results depend on the processing

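The counts of genes higher and lower at day 63 kept within 1.5 times of 1462 and 1402 under other scalings, filters and tests and without any single library, when they ran from 1105 to 1355 and from 1096 to 1303. A test against a 1.5-fold change, which asks for more, called 302 and 342, and 132 and 9 in the interaction. Without 1 library the interaction's higher genes ran from 289 to 361 and its lower genes from 55 (without BLM day 63 replicate 3) to 88. With the replicate number as a block, 1436 genes were higher and 1390.0 lower, and 360.0 and 81 in the interaction. The libraries share only a number, and no pairing is stated. Of 195 fitted gene changes named in the text, 138 kept their direction and side of the threshold under every alternative. These genes were picked with their values in view, mostly leaving out those whose call rests on 1 library. The tally therefore describes the genes named and does not measure how stable other genes are. Those that turned direction had not passed the test. Without 1 library Cxcl12 ran from -0.089 to 0.14, Igfbp3 from -0.010 to 0.37, Pi16 from -0.21 to 0.33, Tagln from -0.19 to 0.55 and the interaction of Col1a1 from -0.20 to 0.13. Genes that had not passed did so elsewhere: Col3a1 with only the 2 groups fitted, Lcn2 with no filter, and Isg15 in both. Of the gene lists, those whose counts moved by more than 1.5 times without 1 library have both counts beside them in the text. With no filter the fit replaced each gene's own spread by the trend over all genes (infinite prior degrees of freedom, against 16.1 with the filter), so its p-values are left out of the ranges of adjusted p given with single genes. The cause of the other shifts was not tested. Depth limits genes of a few CPM, where 1 count in a library is worth about 0.223 to 0.266 CPM in the 6 silica libraries.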

Other observations

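Rabac1, a membrane protein of the Golgi that binds Rab proteins, was high in single libraries of several groups. It read 79.8, 2203 and 85.7 CPM in the untreated libraries, 893, 31.6 and 33.9 CPM at day 7 and 54.4, 66.6 and 77.5 CPM at day 63 of silica, and 89.6, 86.1 and 3966 CPM at day 63 of bleomycin. All 3 libraries of bleomycin day 7 were low, at 52.5, 42.3 and 47.2 CPM.

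Clec4n, a C-type lectin receptor of myeloid cells, and Syt13, a member of the synaptotagmin family, had no count in the untreated libraries. Clec4n rose from 5.02, 3.72 and 3.04 CPM at day 7 to 8.94, 10.6 and 10.5 CPM at day 63 of silica (1.34 ± 0.35) and Syt13 from 2.76, 1.59 and 5.06 to 9.99, 11.4 and 8.68 CPM (1.65 ± 0.36). At day 63 of bleomycin each of them read 0, 0.861 and 0 CPM. Parm1, a mucin-like membrane protein, rose in silica from 2.01, 2.13 and 1.27 to 11.6, 9.05 and 10.9 CPM (2.53 ± 0.39), with 0.491 ± 0.503 CPM in untreated lungs.

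Angiopoietin-2 (Angpt2), a ligand of the endothelial receptor Tie2, rose in silica from 12.5, 4.25 and 2.78 to 21.3, 21.8 and 20.9 CPM (1.70 ± 0.30), with day 7 replicate 1 above the other two of its group. In the interaction it was among the 8 lowest values named, so its change was further above 0 in bleomycin than in silica.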
